A study of Citrus unshiu with 2 samples.

Results

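The regions described here are CHH differentially methylated regions that lie outside annotated gene features on the unplaced sequence of the Citrus unshiu (satsuma mandarin) methylome. They were taken from the authors' deposited CHH table, once each by position, where the sequence name marks unplaced sequence (Un) and the annotation names no promoter, UTR, exon, intron or downstream flank. This gave 16960 regions of the 82479 in the table. They made up 73.6% of the 23029 CHH regions on the unplaced sequence and 31.4% of the 53928 CHH regions outside gene features in the genome. They were in effect selected on the measured contrast between the libraries, since every listed region has an uncorrected p-value under 0.05, so direction and size are given as description and none was tested.

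The series holds 2 whole-genome bisulfite libraries of shoots, labelled as mature stems. One is from trees under normal water and one from trees under light drought, in which soil was left to dry to around 15% moisture and the treatment ran for 75 days. There were 20 healthy trees assigned to each regime, in root-limiting containers inside a rain-proof tunnel, with the number of trees behind a library not given in the sources used here. With 1 library per group there is no replicate check, no interval from reads can be given because the depth is unknown, and the shares below describe these libraries over regions that are not replicates.

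In CHH, H stands for any base other than G. Because the opposite strand of a CHH site carries no matching cytosine, this methylation cannot be copied from the old strand at replication and has to be set again. In plants it is set by RNA-directed DNA methylation, in which small RNAs guide the methyltransferase DRM2, and by the chromomethylase CMT2, which acts in histone H3K9-methylated transposon sequence. CG methylation is copied by MET1, and CHG methylation is kept mainly by CMT3. Unplaced sequence is assembled sequence that could not be assigned to a chromosome, which is often rich in repeats. Its pieces are usually joined in an arbitrary order, the joints lie at positions not given in the sources used here, and a distance between neighbours may therefore span one. No sequence is shown because no genome of the build of these coordinates was used here.

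Most of these regions had the higher CHH level under light drought. By the authors' deposited table, 3603 regions were lower and 13357 were higher, so that 78.8% were higher, beside 80.2% of all CHH regions listed. The share was 80.2% among the 36968 intergenic CHH regions on the numbered chromosomes, where it ranged from 79.1% on chromosome 5 to 81.2% on chromosome 7. The unplaced sequence thus had the lowest share of these sequences, just below chromosome 5. The 6069 CHH regions in gene features of the unplaced sequence stood at 79.3%. These shares lie close together, and whether they differ between the sequences was not tested.

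The direction of the differences, light drought minus normal water, was taken from the order in the names of the deposited tables and checked in the labelled gene tables. All 2910 gene identifiers named by regions on the unplaced sequence begin with "orange", and no region on a numbered chromosome named such a gene. In 60 of 67 of these genes with a CG region in the promoter, the CG promoter level differed in the direction of the region, or 89.6%, where the splits of directions alone would give 55.4%. The same held for 82 of 101 genes in CHG (81.2% beside 52.0%) and for 1331 of 1610 genes in CHH (82.7% beside 73.5%).

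Regions that were higher differed by somewhat more than regions that were lower. Regions that were higher under light drought had a median difference of 18.8 percentage points, with the middle 50% between 14.4 and 24.1 points. Regions that were lower had a median of -16.9 points, with the middle 50% between -21.5 and -12.6 points. The corresponding medians on the numbered chromosomes were 19.3 and -16.6 points. A difference of at least 20 points, in either direction, was found in 6953 regions or 41.0%, beside 43.3% of all CHH regions listed. That size was reached by 43.4% of the higher and 32.0% of the lower regions. From 5 points upward, the share that was higher grew with the size of the difference, while it was 75.7% among the 284 regions under 5 points. It was 69.6% for 5 to 10 points, 76.3% for 10 to 20 points, 82.1% for 20 to 30 points, 87.6% for 30 to 40 points and 91.4% for the 220 regions of 40 points and over, 201 higher and 19 lower.

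**Figure D1:**
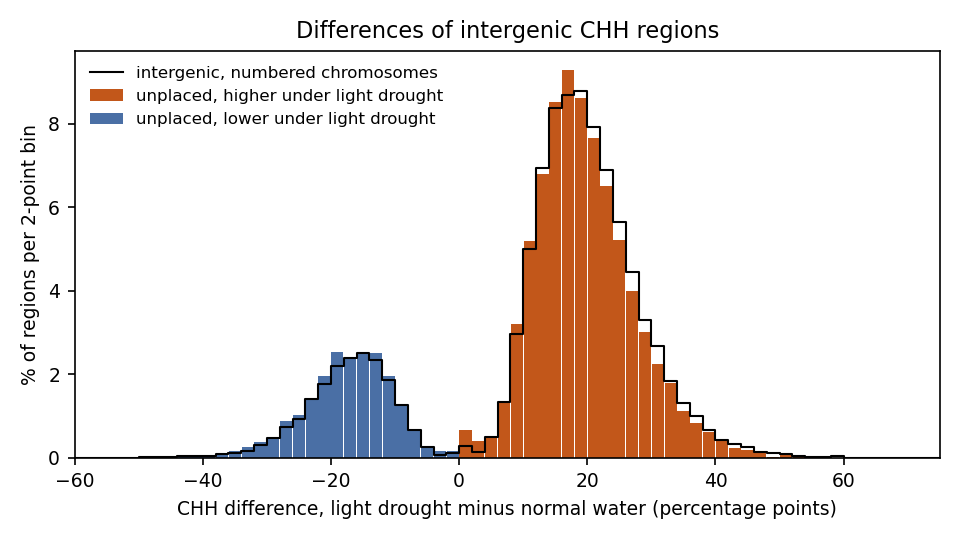
Distribution of the CHH difference (light drought minus normal water, percentage points) in 2-point bins, as a percentage of regions. Bars are the 16960 intergenic regions of the unplaced sequence, coloured by direction, and the line is the 36968 intergenic regions of the numbered chromosomes. Both peak on either side of 0, with medians of 18.8 and -16.9 points in the unplaced sequence, and a small excess of bars stands just above 0.

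The extremes reached about 70 points upward and 50 points downward. In the authors' deposited table the largest difference was 69.6 points, in a region of 10 CHH cytosines at 31246359 to 31246402 of the unplaced sequence. Its uncorrected p there was 1.08e-05, and 0.176 after correction. The next in the authors' deposited table were 67.0 points over 15 cytosines at 25967114 to 25967220 and 60.1 points over 12 cytosines at 72624674 to 72624758. None of these had a CG or CHG region within 5 kb.

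The largest differences in the other direction, in the authors' deposited table, were -50.0 points at 36828623 to 36828680, -49.3 points at 67096653 to 67096683 and -46.3 points at 66638695 to 66638732. Each of these held 10 cytosines and lay over 20 kb from the nearest CG or CHG region. At the limit of the list, the region with the highest uncorrected p in the authors' deposited table, 0.0498, differed by 10.9 points over 18 cytosines. The smallest difference listed was -0.195 points over 11 cytosines, with an uncorrected p of 0.0473 in the authors' deposited table. Values of regions outside the limit are not in the list.

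The regions were short. Their median length was 46 bp, with the middle 50% from 34 to 68 bp and the longest at 311 bp, and together they covered 941287 bp. On the numbered chromosomes the median was 47 bp and the longest 337 bp. Most of the regions, 9422 or 55.6%, held exactly 10 CHH cytosines, the lowest number in the list, and the 95th percentile was 19. Lower regions were a little shorter than higher ones, with medians of 43 and 47 bp, and packed their cytosines slightly more densely, with medians of 26.3 and 25.5 per 100 bp. The longest region, at 15803094 to 15803404, held 26 cytosines and was higher by 23.0 points in the authors' deposited table. A CHG region 652 bp from it had the opposite direction, at -20.1 points. The shortest region had 11 bp and was listed with 10 cytosines.

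Regions with more cytosines were more often higher under light drought. The share was 77.0% among regions with 10 cytosines, 81.4% with 13 to 15, 84.5% with 16 to 20 and 90.4% among the 604 regions with more than 20. The median difference of higher regions did not grow along with this share, at 19.4 points for 10 cytosines and 17.7 points for more than 20. Every listed region passed a limit on a p-value that itself depended on the number of cytosines. The sizes in these classes are therefore in part set by that limit. The share also ran with the uncorrected p-value. Of the 1443 regions with a p-value under 0.0001 in the authors' deposited table, 90.1% were higher, against 73.8% of the 7605 regions with a p-value from 0.01 to 0.05. Both gradients were seen on the numbered chromosomes as well, at 92.7% for more than 20 cytosines and 90.8% for p-values under 0.0001.

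**Figure D2:**
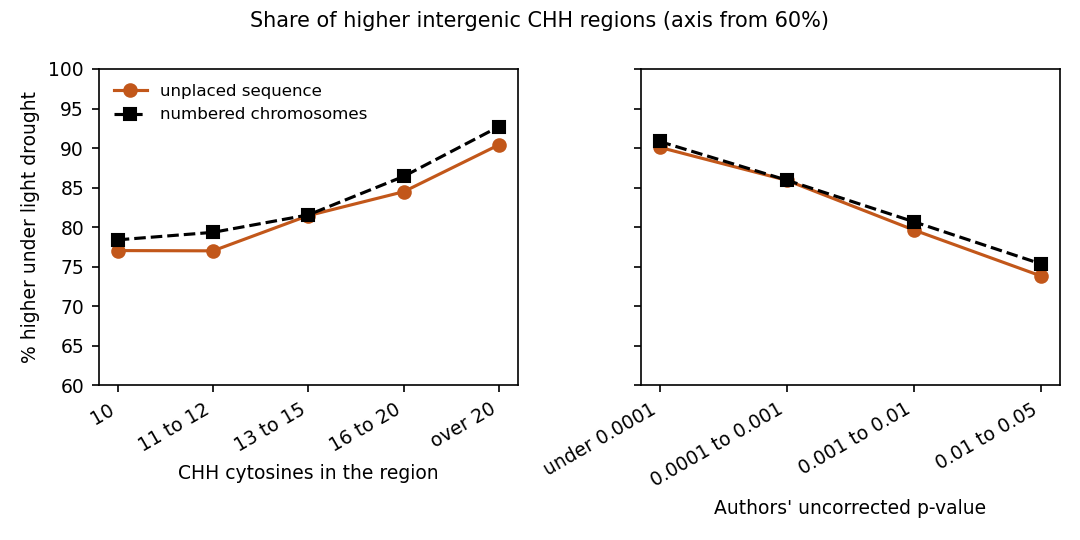
Percentage of intergenic CHH regions that were higher under light drought, by the number of CHH cytosines in the region (left) and by the authors' uncorrected p-value (right); the vertical axis starts at 60%. In the unplaced sequence the share goes from 77.0% at 10 cytosines to 90.4% above 20, and from 90.1% at the smallest p-values to 73.8% at the largest, and the numbered chromosomes follow the same course.

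Only 28 regions had a corrected p-value under 0.05 in the authors' deposited table, which is 0.165%, beside 0.27% of all CHH regions listed. Of these, 27 were higher under light drought, with a median difference of 34.2 points, and 1 was lower. They were long for the list, with a median of 110.5 bp and 26 cytosines and at least 14 cytosines each, and they lay in 24 different 1 Mb windows. The smallest corrected p in the authors' deposited table, 9.42e-06, belonged to a region of 39 cytosines at 67983088 to 67983301 that was higher by 30.3 points. A CHG region 38 bp from it was higher by 7.38 points. The smallest uncorrected p in the authors' deposited table, 1.29e-13, belonged to a region of 43 cytosines at 58058880 to 58059072 that was higher by 34.1 points and kept a p of 0.00171 after correction. The 1 lower region, at 2244993 to 2245042, differed by -30.02 points over 18 cytosines, and its p after correction was 0.0499, all by the authors' deposited table. It lay 398 bp from a CHG region that was also lower, by -32.9 points.

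The uncorrected p-values depended on the number of cytosines. For the 9422 regions with 10 cytosines they took 24 distinct values, and each matched, within 0.1%, a p-value of an exact two-sided rank-sum test of 10 against 10 values, of which 24 lie under 0.05. The lowest such value is 1.08e-05, and 267 regions stood at it, 236 of them higher and 31 lower. Their differences ranged from 5.01 to 69.6 points in size and their corrected p-values from 0.163 to 1 in the authors' deposited table. No region with 10 cytosines had a corrected p under 0.05. The way the authors computed them is a point not given in the sources used here, and these p-values do not measure the spread between trees.

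The regions were spread over the whole unplaced sequence, from position 20959 to 88839134, with a strongly uneven density. All 89 windows of 1 Mb held some, with a median of 167 per window, a mean of 190.6 and a range from 39 to 543. On the numbered chromosomes the median over 243 windows was 119, the mean 152.1 and the range 13 to 483. Chromosomes 4 and 7 had higher means than the unplaced sequence, at 238.45 and 221.1 per window. The other numbered chromosomes had lower ones, from 90.3 on chromosome 3 to 160.6 on chromosome 2. The 10 densest windows of the unplaced sequence held 27.3% of its intergenic CHH regions. The densest were the windows at 2000001 to 3000000, 1000001 to 2000000 and 15000001 to 16000000, with 543, 540 and 474 regions, of which 79.4%, 81.1% and 76.2% were higher. The sparsest lay at the end, with 39 regions at 86000001 to 87000000, 39 from 88000001 on, where the listed regions end within the window, and 42 at 87000001 to 88000000, of which 71.8%, 69.2% and 90.5% were higher. Per window the regions covered between 1419 and 28079 bp.

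**Figure D3:**
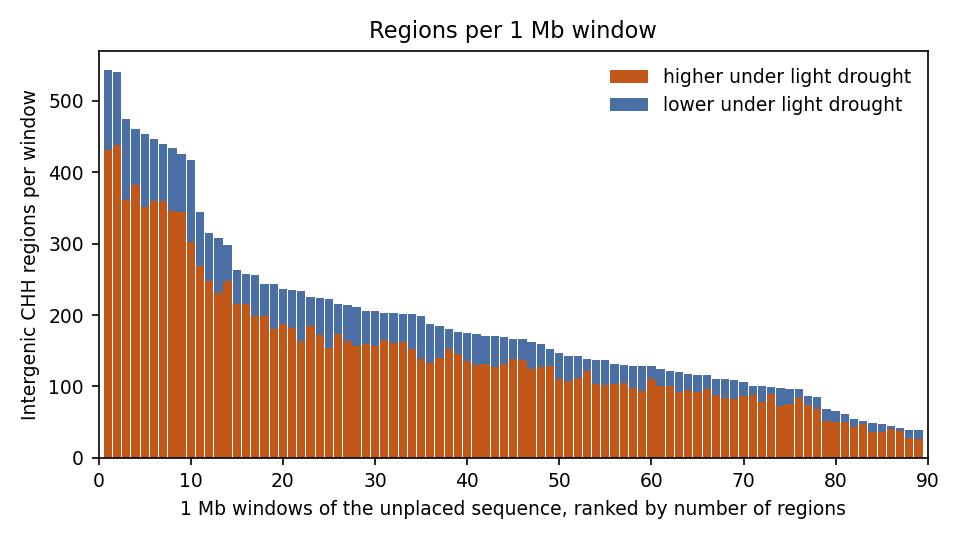
Number of intergenic CHH regions in each of 89 windows of 1 Mb of the unplaced sequence, ranked from the densest (543 regions) to the sparsest (39 regions) and split by direction. The lower regions take a similar part of dense and sparse windows.

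Direction changed little with density. More regions were higher than lower in all 89 windows, and the share that was higher lay between 69.4% and 88.0% among the 72 windows with at least 100 regions. It was 80.2% in the 30 sparsest windows, 78.4% in the 29 middle windows and 78.6% in the 30 densest. Across the 89 windows, density and share had a Spearman rho of -0.05. What surrounded the regions did change. In the 30 sparsest windows 60.8% of the CHH regions lay outside gene features, against 78.4% in the 30 densest. Relative to 100 intergenic CHH regions, there were 7.60 CG and 8.56 CHG regions in the sparsest windows and 2.05 and 3.75 in the densest. Both measures shift in part because the windows were ranked by their number of intergenic CHH regions. The counts themselves, gene features included, were 198 CG and 223 CHG regions in the sparsest windows and 197 and 360 in the densest. The CG and CHG regions were thus not fewer in dense windows by more than this small change in CG.

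The gene tables gave levels per gene, from the same 2 libraries. Genes named by regions were placed in the windows, since the gene tables hold no positions, so these genes are not all genes there. Only 1299 of the 2910 placed genes had no CHH region in the promoter. The mean promoter CHH level under normal water was 14.0% over all 2910 placed genes, against 11.1% over the 5749 genes with identifiers of the unplaced sequence. The levels of the placed genes are therefore no independent readout. In the 3 densest windows the mean CHG gene-body level of the placed genes was 43.2%, 43.8% and 56.9% under normal water and 43.1%, 44.3% and 57.4% under light drought. In the 3 sparsest it was 18.9%, 9.56% and 10.8% under normal water and 18.8%, 8.76% and 8.99% under light drought. In both libraries the genes of these 3 densest windows had the higher CHG gene-body levels; such methylation is, as background, common in transposons and rare in the bodies of active genes. Across the 89 windows, density had a Spearman rho of 0.47 with this level and of 0.49 with the CHH promoter level, both under normal water. The windows share 1 pair of libraries, and their gene and repeat content also differs. The 5749 genes with identifiers of the unplaced sequence that both gene tables list stood at 20.4% in CHG gene-body level under normal water, against 10.6% for all other genes, and at 20.6% and 10.7% under light drought.

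Neighbouring regions tended to differ in the same direction when they lay close together. The median gap between adjacent regions was 807 bp and 53.6% of gaps were at most 1 kb. Over all 16959 adjacent pairs, 68.3% had the same sign, where the split of directions alone gives 66.5%. Of the 105 pairs that touched, 88 or 83.8% had the same sign. The share was 75.4% for gaps of 1 to 50 bp, 72.7% up to 100 bp, 68.2% from there to 500 bp and 65.5% from there to 1000 bp.

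Part of this course came with the direction itself, because regions with close neighbours were more often higher. The share of higher regions was 87.1% in touching pairs and 76.9% in pairs 500 to 1000 bp apart. Set against the split of directions in the same pairs, the agreement was 6.22 points higher for touching pairs, 4.59 points for gaps of 1 to 50 bp, 2.88 points for 50 to 100 bp and between 0.657 and 1.61 points in each class of larger gaps. The excess was thus largest below 100 bp. On the numbered chromosomes it was 3.93, 3.17 and 1.37 points in the first 3 classes and -0.253 points above 10 kb. Whether the excess differs between unplaced and numbered sequence was not tested.

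**Figure D4:**
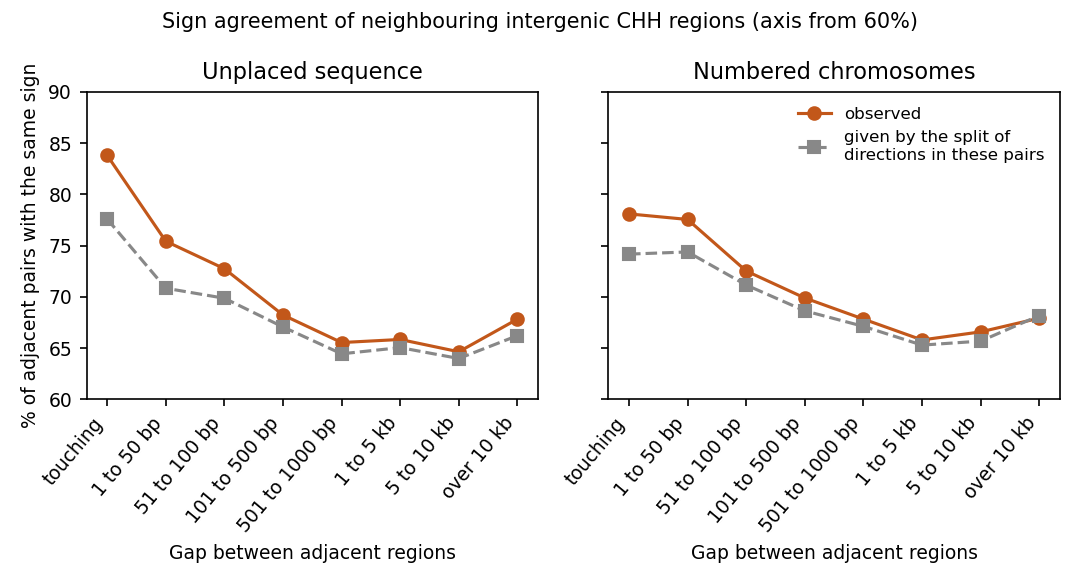
Percentage of adjacent intergenic CHH regions with the same sign, by the gap between them, on the unplaced sequence (left) and the numbered chromosomes (right); the vertical axis starts at 60%. Circles are observed and squares are what the split of directions among the same pairs gives, and on the unplaced sequence the circles fall from 83.8% for touching regions to 65.5% at 500 to 1000 bp.

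Regions at most 100 bp apart can be joined into stretches, which gave 13587 stretches, 2491 of them with at least 2 regions. Stretches with 5 or more regions numbered 63 and held 355 regions, of which 326 were higher and 29 lower, or 91.8% higher. Regions that stood alone, 11096 in number, were higher in 77.4%. The median difference of higher regions was 20.0 points in stretches of 5 or more and 18.6 points when alone, so crowding went with direction more than with size.

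Long runs of a single sign were runs of higher regions. With gaps of at most 1 kb, the longest runs held 19 higher regions each, at 1816426 to 1820678 and at 2507778 to 2512623, in the 2 densest windows. Their mean differences were 19.7 and 22.7 points. The next held 17 higher regions within 1730 bp, at 14692001 to 14693730, with a mean of 24.0 points and single values from 14.6 to 44.3 points. There were 35 runs of 10 or more higher regions and none of lower regions. The longest runs of lower regions held 5 regions, at 13388642 to 13390553 with a mean of -20.6 points and at 62108331 to 62109766 with a mean of -14.4 points. Since higher regions were the majority, longer runs of that sign follow in part from the split alone.

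Few of the regions lay near a CG or CHG region. A CG region was found within 1 kb of 422 regions or 2.49%, beside 2.61% of all CHH regions listed, and a CHG region within 1 kb of 598 regions or 3.53%, beside 4% of all CHH regions listed. In all, 16053 regions or 94.7% had neither within 1 kb. Seen from the other side, the unplaced sequence carried 349 CG and 427 CHG regions outside gene features. Of these, 57.9% in CG and 58.8% in CHG had one of the CHH regions within 1 kb. Higher and lower CHH regions had CG or CHG regions nearby about equally often, at 2.46% and 2.61% for CG and 3.54% and 3.47% for CHG.

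Where the contexts overlapped, their directions mostly matched. At least 1 bp was shared with a CG region by 53 CHH regions, or 0.312%, beside 0.316% of all CHH regions listed. Of these 44 or 83.0% had the sign of the CG region, where the splits of directions in these pairs alone give 61.9%. At least 1 bp was shared with a CHG region by 82 CHH regions, or 0.483%, beside 0.628% of all CHH regions listed. Of these 63 or 76.8% had the sign of the CHG region, beside 64.7% from the splits. Matches occurred in both directions: 9 of the 12 lower CHH regions on a CG region and 9 of the 15 on a CHG region met a lower partner.

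The match faded over a short distance. Within 200 bp, which includes the overlaps, it was 68.6% for CG and 64.7% for CHG, beside 61.7% and 57.4% from the splits. Within 1 kb it was 60.9% for CG and 54.0% for CHG, beside 61.6% and 53.4%, and so close to what the splits give. Between 1 and 5 kb it was 57.8% and 48.2%, beside 58.5% and 50.5%. Counted once per CHH region, the nearest CHG region within 1 kb was higher under light drought in 55.9% of 598 cases. These cases share 263 distinct CHG regions, and 79.1% of the CHH regions in them were higher. On the numbered chromosomes the same count gave 65.1% of 1191 cases, over 560 distinct CHG regions. Counted once each, 57.2% of the CHG regions on the unplaced sequence and 61.6% of all CHG regions listed were higher.

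**Figure D5:**
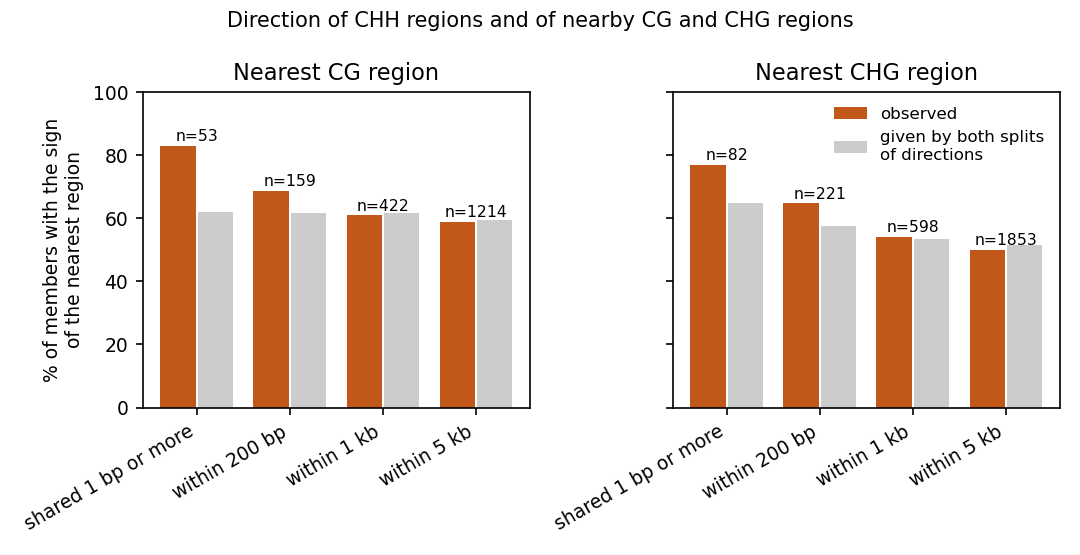
Percentage of intergenic CHH regions on the unplaced sequence that had the sign of the nearest CG region (left) or CHG region (right), for regions that share at least 1 bp and for increasing distances, each of which includes the nearer ones. Grey bars are what the splits of directions give, and the observed bars drop from 83.0% and 76.8% at overlap to 60.9% and 54.0% within 1 kb.

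Overlap with a CG and a CHG region at once was found in 11 CHH regions. In 10 of them all contexts were higher under light drought. In the authors' deposited tables the largest was at 19914830 to 19914879, where CHH differed by 27.5 points, CG by 15.3 points and CHG by 29.97 points. The next was at 10608793 to 10608864, where CHH differed by 27.2 points over 16 cytosines, CG by 25.7 points and CHG by 26.9 points in the authors' deposited tables. The others at 20 points or more in CHH were at 67029646 to 67029719, at 35761778 to 35761836 and at 61993648 to 61993756. In 5 of the 11 the CHH difference was under 5 points. One further stretch was lower in all contexts: at 21822746 to 21823051 a CHH, a CG and a CHG region formed a chain that spans 306 bp, in which the CHH region does not overlap both of the others, with differences from -30.3 to -18.1 points.

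Distance from listed regions in gene features went with a small shift in direction. The CHH, CG and CHG regions in gene features of the unplaced sequence served as marks of genes. Most marks were CHH regions, 6069 in number, so closeness to a gene cannot be told apart here from closeness to another listed CHH region. Among the 645 intergenic CHH regions within 1 kb of such a mark, 82.8% were higher under light drought. The share was 79.7% from 1 to 5 kb, 78.9% from 5 to 20 kb and 77.4% for the 5211 regions over 20 kb away. The median difference of higher regions went from 19.4 to 18.7 points over the same distances. Genes without a listed region leave no mark, so these distances are upper limits of the distance to a gene feature.

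Promoter CHH levels were compared in the gene tables by distance to these regions. The distance ran from the span of the listed regions, of any context and feature, that name a gene, and so not from its promoter. Only genes that hold no CHH region in the promoter were taken. In the 82 such genes whose nearest intergenic CHH region lay within 1 kb and was higher, the mean difference was 1.33 points (SD 3.86 over genes), and in the 20 whose nearest was lower it was 0.267 points (SD 3.30). In the 335 genes whose nearest intergenic CHH region lay 1 to 5 kb away and was higher, the mean promoter CHH level was 9.08% under normal water and 11.3% under light drought, a difference of 2.18 points (SD 5.39 over genes). In the 97 genes whose nearest region at that distance was lower, it was 9.01% and 10.1%, a difference of 1.06 points (SD 3.20 over genes). Beyond 5 kb the order was the other way round, with 1.16 points in 623 genes (SD 4.39) and 2.41 points in 142 genes (SD 5.50). The spread over genes exceeded these differences, and genes are not replicates.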

How the data were processed

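DNA methylation was measured by bisulfite sequencing in 1 library of light drought and 1 of normal water. Tools listed in the submitters' processing notes, with no role stated, were bedtools 2.26.0, Bismark 0.20.1 and SAMtools 1.4. Genome build, region caller, depth and coverage limits were not given in the sources used here. Per the file headers, each deposited region carries the authors' difference (light drought minus normal water, percentage points, handled as a score with a sign) and its p-value before and after correction. The authors' deposited gene tables give levels in percent per gene feature. Across the region tables, a further 6 columns hold levels under group names that match neither library's labels, and they were left out.

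Each region was counted once and starts are printed counted from 1: neighbouring CHH regions outside gene features touched in 105 cases on the unplaced sequence and overlapped in 0, so starts were read as counted from 0. Gaps run between region ends, and touching regions have a gap of 0. Shares given by the split alone are the sum of squared shares of both directions, or of products where contexts differ. No test between conditions was made. The planned comparison of promoters by distance could not be made as written, because the gene tables hold no positions, and genes were placed by the regions that name them. Regions named are the extremes in difference, p-value, length, density, runs and overlap; the 1 lower region with a corrected p under 0.05 and the patches of small differences were named after their values were seen. The members, lists and cut-offs were chosen with earlier results of these data known. Python 3.11.15, numpy 2.4.6, pandas 2.3.3, scipy 1.17.1 and matplotlib 3.10.9 were used, and the neighbour, joining and overlap steps were tested on simulated data.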

Additional observations from a re-analysis of the deposited data

How the results depend on the processing

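No paired analysis was possible because only 1 library stands for each water regime, which also leaves none to omit. A share counted as moved when it left the 95% exact binomial interval of the main share, and a median when it changed by more than 1.5 times. The interval takes regions as independent, which they are not, so it served only as a yardstick. By this measure 28 values moved, 45 stayed, and 0 turned in direction, and the cause was not tested. The shares near CG and CHG change by definition when the distance changes. Lengths, densities and those shares have no direction that could turn. With uncorrected p-values up to 0.01, 82.8% were higher and 72.4% of neighbours matched in sign. With differences of at least 20 points these became 83.4% and 73.7%, and 3.19% had a CHG region within 1 kb. With at least 15 cytosines they were 85.8% and 76.1%, the median length 72 bp and the CHG match 58.8%. The match of neighbours that the split alone gives also rises with the share that is higher. It was not recalculated for these sets, so their matches do not show closer agreement of neighbours. With a corrected p under 0.05, 96.4% of 28 regions were higher, the median difference was 34.1 points and the median length 110.5 bp. Their neighbour match of 92.6% over 27 pairs follows from the split, because only 1 of these regions was lower. Among these regions 0 had a CG region and 7.14% a CHG region within 1 kb, with 100% of 2 matching, and no CG match could be given. Neighbours within 1 kb matched in 70.1%. The shares near CG and CHG were 0.312% and 0.483% at overlap, 0.938% and 1.30% within 200 bp, and 7.16% and 10.9% within 5 kb, with matches of 83.0% and 76.8% at overlap and 68.6% and 64.7% within 200 bp. Without regions under 5 points, chosen after the data were seen, 2.04% had a CG region within 1 kb. Joining regions, leaving out the 3 densest windows and other window sizes moved none of the values recalculated. The unknown depth limits all values.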

Other observations

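A small set of regions differed by very little and sat together. Of the 16960 intergenic CHH regions on the unplaced sequence, 284 or 1.67% differed by under 5 points. The share was 0.898% for the intergenic CHH regions on the numbered chromosomes and 1.28% for all CHH regions listed. In gene features of the unplaced sequence it was 2.08%, or 126 CHH regions, so small differences were not particular to the intergenic regions there. The 284 intergenic regions had a median size of 1.96 points, and in 215 the light drought library had the higher level. When regions under 5 points were chained over gaps of up to 20 kb, 7 patches held at least 5 of them each. The patches covered 120083 bp and held 105 of the 284 small regions. They held only 109 intergenic CHH regions in all, so nearly every one inside a patch was small. At 49755079 to 49769729, 19 regions had a median of 1.41 points and 18 were higher. At 52982203 to 52993073, 14 regions had a median of 1.28 points and 13 were higher. At 47512816 to 47515042, by contrast, 6 of 11 regions were higher, with a median of 0.404 points. In the patch at 16140180 to 16153032, 18 of 22 regions were small, as were 5 of 6 CG and 6 of 6 CHG regions.

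The small regions also lay more often near regions of the other contexts. A CG region was within 1 kb of 82 of the 284, or 28.9%, against 2.04% of regions of 5 points and over, and a CHG region was within 1 kb of 11.6% against 3.39%. Regions that sit together can share a CG region. Over regions of all sizes, the 422 with a CG region within 1 kb had 184 distinct nearest ones. The number behind the 82 was not counted. Among CG regions outside gene features, 16.3% on the unplaced sequence and 8.88% on the numbered chromosomes differed by under 5 points. Without the small regions, 31 of 38 CHH regions that overlap a CG region and 55 of 72 that overlap a CHG region had the sign of their partner. What the splits of directions alone give was not calculated for these pairs. With regions of all sizes it was 61.9% for CG and 64.7% for CHG. The size limit and the patches were chosen after the data were seen, and the levels behind these small differences were not used.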
